A study of Mus musculus with 6 samples.

Results

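The genes described here encode the plasma proteins, epithelial keratins and regulators of the hepatoblast, the endodermal precursor of hepatocytes and bile duct cells. They were chosen from a list of 37 symbols, of which 34 were among the 12579 genes of the count table. Apoc3, Apoh and Cps1 were not analysed here. All 34 passed the filter on low counts, which left 12576 genes. By role, the 34 comprised 4 apolipoproteins, 8 coagulation and fibrinolysis proteins, 8 carriers, 8 protease inhibitors and other secreted proteins, 3 keratins, and 3 genes for the transcription factors Hnf4a and Foxa2 and the surface protein Dlk1.

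RNA was sequenced in bulk from E14.5 mouse fetal liver, with 3 Prl2-/- samples and 3 Prl2+/+ samples. Prl2 encodes a small protein tyrosine phosphatase and is listed as Ptp4a2. The labels give the cell type as hematopoietic stem and progenitor cells, and the protocols mention harvest of fetal liver cells with no sorting step and no statement of how the null allele was made. Whether the libraries represent different embryos is not in the labels. The p-values therefore reflect variation among 6 samples whose source, biological or technical, is not stated.

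Prl2-/- replicates 1 to 3 held 35802952, 29525301 and 37026282 counts, and Prl2+/+ replicates 1 to 3 held 26141378, 33613949 and 25965111. Reads of Ptp4a2 numbered 44, 38 and 38 in Prl2-/- and 8088, 9906 and 8135 in Prl2+/+, so all 6 libraries matched their genotype labels. Genes of the labelled cell type were abundant in each library: Kit, the stem cell factor receptor, stood at 204 to 229 CPM (the usual counts-per-total unit, here against the library total) in Prl2-/- and 190 to 244 CPM in Prl2+/+, and Cd34 at 195 to 212 and 172 to 199 CPM. Alb and Afp, which mark hepatoblasts, were detected in all 6 libraries, at summed levels of 7.57 to 1108 CPM in Prl2-/- and 38.7 to 1972 CPM in Prl2+/+.

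The fetal liver at mid-gestation is the main site of blood formation, and blood progenitors mature there between hepatoblasts. Hepatoblasts secrete most proteins of fetal plasma: alpha-fetoprotein and albumin, apolipoproteins, clotting factors, and carriers for retinol, thyroid hormone, vitamin D, haem and iron. Transcription of these genes is known to depend on the liver-enriched factors HNF4, FOXA and C/EBP, and keratins 8 and 18 form the intermediate filaments of these epithelial cells. In bulk RNA, fewer cells of a type and less RNA per cell cannot be told apart.

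Promoter sequences are shown for genes that ranked the libraries alike and for Dlk1, which varied far less and did not share their exact order. Any link between promoter sequence and levels across libraries was not tested. The 300-base windows (250 bases before to 50 after the annotated start, RefSeq, GRCm38.p6) are those of both hepatoblast markers, of neighbouring fibrinogen chain genes, of a keratin gene and of Dlk1. Capitals mark matches, on either strand, to CAAAGTCC (HNF4), TGTTTAC (FOXA) or TTGCNNAA (C/EBP). No match shares a base with another in these windows.
Alb promoter, chr5:90460620-90460919, plus strand: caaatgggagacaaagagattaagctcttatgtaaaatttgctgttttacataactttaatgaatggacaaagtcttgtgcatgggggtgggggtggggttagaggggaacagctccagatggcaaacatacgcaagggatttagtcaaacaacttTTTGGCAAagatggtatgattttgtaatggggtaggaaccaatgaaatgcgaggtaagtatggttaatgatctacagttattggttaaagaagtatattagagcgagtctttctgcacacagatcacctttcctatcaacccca
Afp promoter, chr5:90490464-90490763, plus strand: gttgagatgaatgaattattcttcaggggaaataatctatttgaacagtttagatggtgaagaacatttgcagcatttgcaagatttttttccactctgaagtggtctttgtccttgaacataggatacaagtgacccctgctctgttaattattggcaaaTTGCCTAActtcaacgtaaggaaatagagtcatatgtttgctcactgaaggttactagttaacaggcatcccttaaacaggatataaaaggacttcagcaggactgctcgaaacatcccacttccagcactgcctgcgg
Fga promoter, chr3:83025903-83026202, plus strand: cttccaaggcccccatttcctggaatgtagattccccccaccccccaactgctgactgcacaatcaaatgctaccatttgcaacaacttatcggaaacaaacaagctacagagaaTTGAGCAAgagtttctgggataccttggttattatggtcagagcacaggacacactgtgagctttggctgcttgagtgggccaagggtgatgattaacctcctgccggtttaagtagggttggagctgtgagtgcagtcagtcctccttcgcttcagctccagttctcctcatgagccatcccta
Fgb promoter, chr3:83049814-83050113, minus strand: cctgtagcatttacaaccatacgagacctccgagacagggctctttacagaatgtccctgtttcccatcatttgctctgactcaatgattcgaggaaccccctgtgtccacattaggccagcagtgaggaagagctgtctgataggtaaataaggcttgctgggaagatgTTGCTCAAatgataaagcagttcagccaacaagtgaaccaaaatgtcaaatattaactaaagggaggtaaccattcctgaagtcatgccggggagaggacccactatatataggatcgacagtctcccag
Krt8 promoter, chr15:102004293-102004592, minus strand: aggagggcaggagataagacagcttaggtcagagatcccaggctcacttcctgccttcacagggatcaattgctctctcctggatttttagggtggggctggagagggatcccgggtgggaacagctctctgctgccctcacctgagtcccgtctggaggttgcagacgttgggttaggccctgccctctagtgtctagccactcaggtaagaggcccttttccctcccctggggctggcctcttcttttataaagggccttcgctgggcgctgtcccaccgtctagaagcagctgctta
Dlk1 promoter, chr12:109452573-109452872, plus strand: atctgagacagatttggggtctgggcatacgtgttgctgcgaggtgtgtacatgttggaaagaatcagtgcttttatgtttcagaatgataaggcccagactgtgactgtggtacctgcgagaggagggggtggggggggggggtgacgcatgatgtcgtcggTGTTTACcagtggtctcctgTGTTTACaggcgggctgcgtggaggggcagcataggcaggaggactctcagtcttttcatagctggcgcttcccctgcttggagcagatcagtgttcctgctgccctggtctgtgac

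Windows were found for 30 of the 34 genes, and a gene was counted if any of its windows held the motif. TTGCNNAA occurred for 13 of 30, or 43.3%, and for 12.2% of the 27025 genes in the RefSeq table. TGTTTAC occurred for 3 of 30 (Apoa2, Rbp4 and Dlk1), against 4.05% of all genes, and CAAAGTCC for 0 of 30, against 1.63%. In the windows shown, Alb, Afp, Fga and Fgb each held 1 C/EBP match, Krt8 held none of the 3 motifs, and Dlk1 held 2 FOXA matches. These are matches of letters and say nothing of binding.

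Hepatoblast transcripts made up very different shares of the 6 libraries, and the spread lay within each genotype. The 34 genes together took 0.00806% of counts in Prl2-/- replicate 1 (95% exact binomial interval 0.00777% to 0.00836%), 0.332% in replicate 2 (0.330% to 0.334%) and 0.0429% in replicate 3 (0.0423% to 0.0436%). In Prl2+/+ they took 0.605% in replicate 1 (0.602% to 0.608%), 0.113% in replicate 2 (0.112% to 0.114%) and 0.0198% in replicate 3 (0.0193% to 0.0204%). These intervals cover counting error only. Prl2+/+ replicate 1 was the richest library and Prl2-/- replicate 1 the poorest, and the ranges of the genotypes overlapped.

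**Figure D1:**
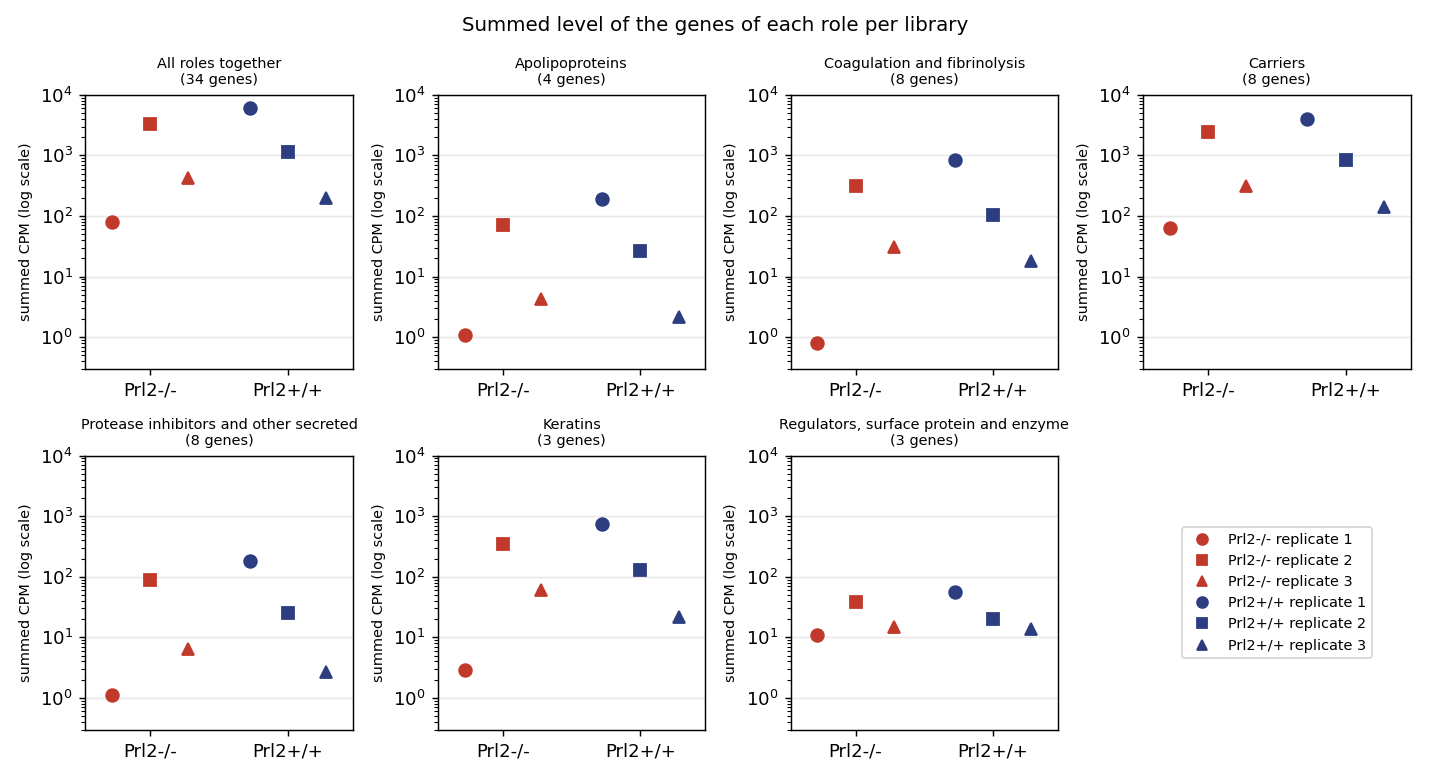
Summed CPM (log axis) of the genes of each role, 1 point per library, with Prl2-/- on the left and Prl2+/+ on the right of each panel. For all roles together the points run from 80.6 to 3318 CPM in Prl2-/- and from 198 to 6050 CPM in Prl2+/+; the panel of regulators, which includes Dlk1, has the narrowest spread, at 10.9 to 38.3 and 13.5 to 56.2 CPM.

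No gene of the set passed the test of genotype. In edgeR's quasi-likelihood test with Benjamini-Hochberg adjustment, 0 of 34 were called higher and 0 of 34 lower in Prl2-/-, where 0.0398% of all 12576 genes were called in either direction, 0.0159% higher and 0.0239% lower. At an unadjusted edgeR p under 0.05 the count was also 0 of 34, against 578 of the 12576 genes, and DESeq2 called 0 of 34 and 0.286% of all genes. In none of the 34 did the groups fail to overlap, which 11.4% of all genes tested did. All 34 estimates lay below 0, against 50.2% of all genes, with a median log2 fold change of -1.17, against -0.00067 over all genes. The sign rested on 1 library: without Prl2+/+ replicate 1 all 34 estimates lay above 0, with a median of 0.93. Without Prl2-/- replicate 2 the median was -3.96, with 0 of 34 called (smallest edgeR adjusted p = 0.775). In that fit 5 of 34 had an unadjusted edgeR p under 0.05, against 594 of all 12578 genes tested.

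**Figure D2:**
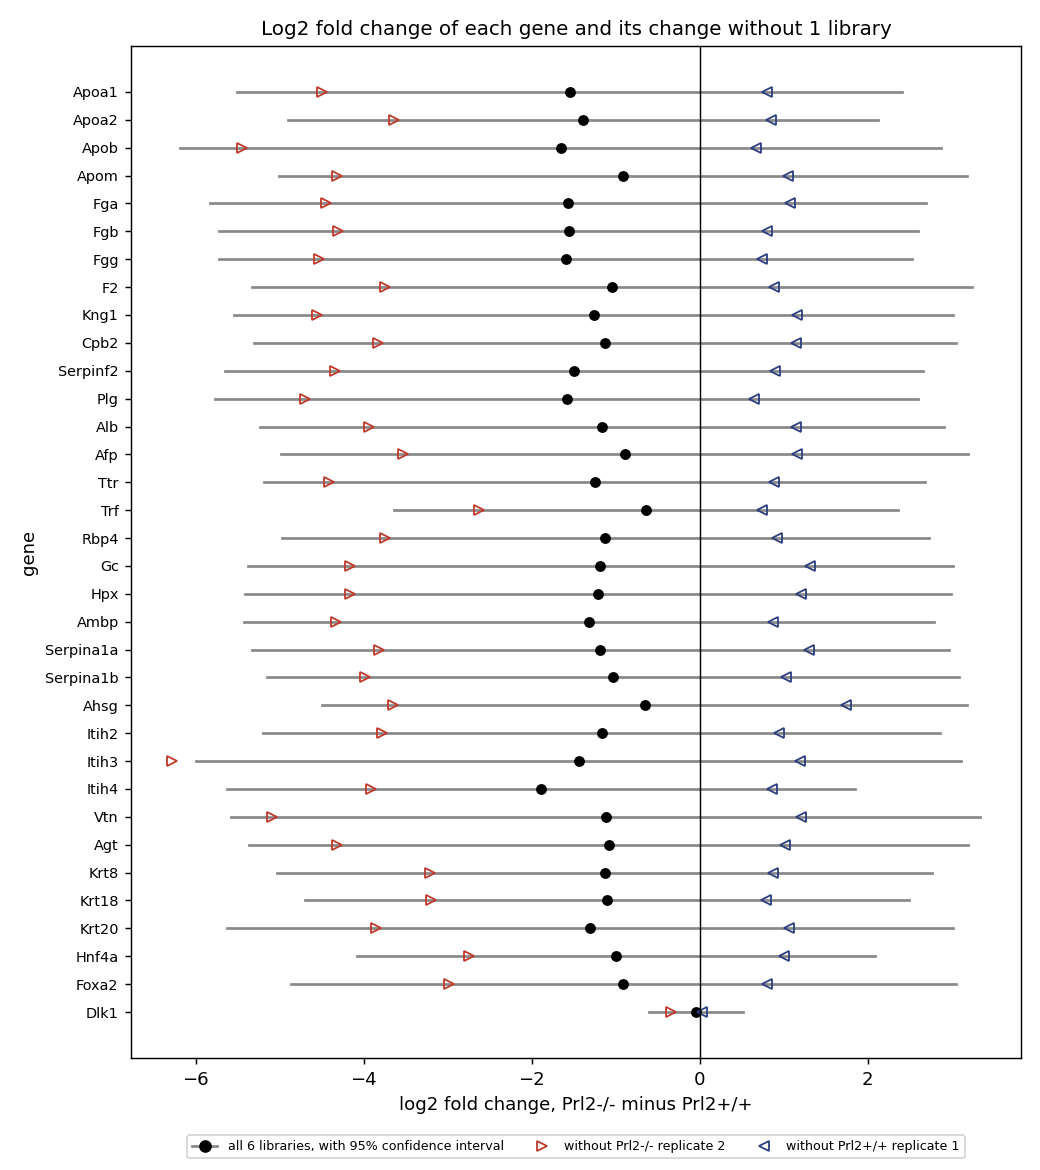
Log2 fold change (Prl2-/- minus Prl2+/+) of each gene, with black points and grey 95% confidence intervals for all 6 libraries, and open triangles for the fit without Prl2-/- replicate 2 (red) or without Prl2+/+ replicate 1 (blue). Every interval spans 0, all black points lie left of 0, and all blue triangles lie right of it.

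Carriers supplied most of the counts, through alpha-fetoprotein and transferrin. Afp, the main carrier protein of fetal plasma, was counted 229, 29401 and 4117 times in Prl2-/- and 45298, 9751 and 931 times in Prl2+/+, each in the order of replicates 1 to 3. That is 6.40, 996 and 111 CPM in Prl2-/- and 1733, 290 and 35.9 CPM in Prl2+/+. Prl2-/- replicate 2 and Prl2+/+ replicate 1 were high, and the lowest library of each genotype was 156-fold and 48.3-fold below the highest one. The log2 fold change was -0.89 ± 1.71 (SE; 95% confidence interval -4.98 to 3.20; edgeR adjusted p = 0.922).

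Alb, the gene of albumin, had 1.17, 112 and 10.8 CPM in Prl2-/- and 240, 33.5 and 2.81 CPM in Prl2+/+. The 6 libraries ranked from highest to lowest as Prl2+/+ replicate 1, Prl2-/- replicate 2, Prl2+/+ replicate 2, Prl2-/- replicate 3, Prl2+/+ replicate 3 and Prl2-/- replicate 1, so the genotypes alternated. The mean ± SD (n = 3 each) was 41.4 ± 61.6 CPM for Prl2-/- and 92.0 ± 129 CPM for Prl2+/+, and the log2 fold change was -1.16 ± 1.71 (SE; edgeR adjusted p = 0.908). The low end of the range was thinly covered, since Alb had 42 counts in Prl2-/- replicate 1 (95% exact Poisson interval 30.3 to 56.8).

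Rbp4, the retinol carrier, had 32, 2705 and 371 counts in Prl2-/- and 4872, 1049 and 105 in Prl2+/+. Ambp, which encodes alpha-1-microglobulin and bikunin, had 0.196, 55.7 and 4.67 CPM in Prl2-/- and 128, 19.0 and 2.35 CPM in Prl2+/+. Both ranked the libraries as Alb did. Hpx (haem-binding hemopexin), Gc (the vitamin D carrier) and Ttr (transthyretin, a thyroid hormone carrier) had log2 fold changes of -1.21, -1.18 and -1.25 and showed the same order.

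Trf, the gene of the iron carrier transferrin, kept the order but had a much higher low end. It stood at 54.6, 1113 and 169 CPM in Prl2-/- and 1552, 431 and 92.0 CPM in Prl2+/+. Its highest library was 28.4-fold above its lowest, where that ratio was 271 for Afp and 204 for Alb. Trf therefore made up 67.7% of the counts on the 34 genes in Prl2-/- replicate 1, the poorest library, and 25.6% in Prl2+/+ replicate 1, the richest.

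**Figure D3:**
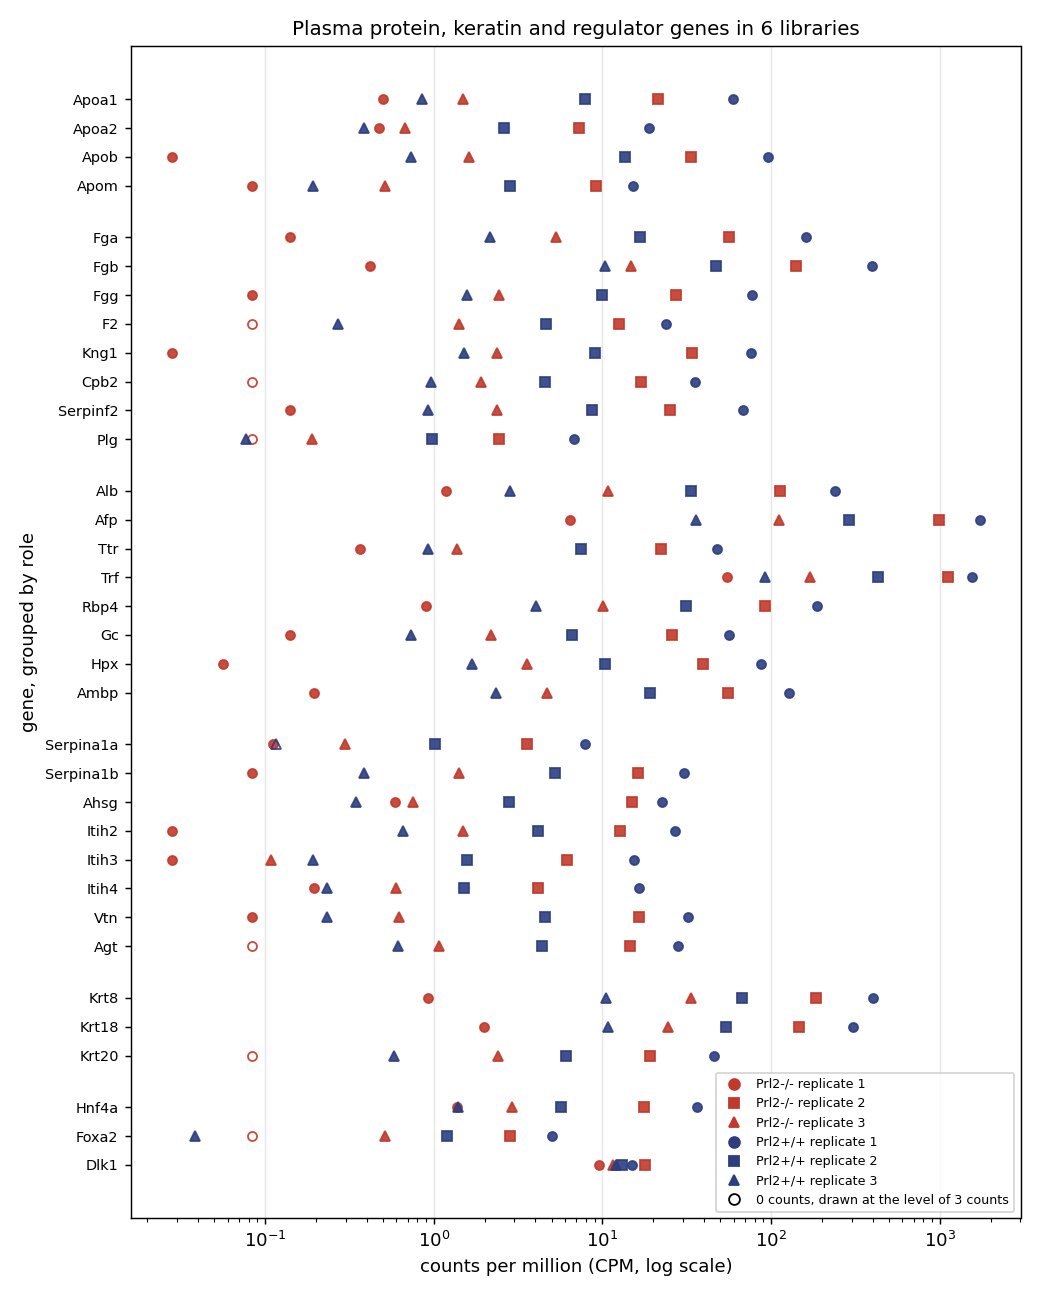
CPM (log axis) of each of the 34 genes in every library, grouped by role, with Prl2-/- in red, Prl2+/+ in blue and a symbol for each replicate; open symbols stand for 0 counts, drawn at the level of 3 counts. Most rows show the same sequence of symbols over 2 to 3 powers of 10, while Dlk1 is confined to 9.52 to 17.9 CPM.

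Coagulation and fibrinolysis genes had the lowest summed level of the 6 roles in the poorest library. Fgb, the fibrinogen beta chain, had 15, 4128 and 545 counts in Prl2-/- and 10379, 1594 and 268 in Prl2+/+, or 0.419, 140 and 14.7 CPM and 397, 47.4 and 10.3 CPM. Fga, the alpha chain, had 5, 1651 and 196 counts in Prl2-/- and 4219, 564 and 56 in Prl2+/+. Fgg, the gamma chain, had 3, 801 and 90 counts in Prl2-/- and 2020, 335 and 41 in Prl2+/+. The 3 chains are encoded side by side on mouse chromosome 3 (Fgg 83007896 to 83015049, Fga 83026153 to 83033617, Fgb 83042305 to 83049790, GRCm38) and ranked the libraries alike, with log2 fold changes of -1.59, -1.57 and -1.56 (edgeR adjusted p = 0.899, 0.903 and 0.902).

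The remaining 5 genes of this role showed the same picture at lower counts. F2 (prothrombin) had 0, 370 and 52 counts in Prl2-/- and 620, 155 and 7 in Prl2+/+. Kng1, the kininogen gene, had 1, 999 and 88 counts in Prl2-/- and 1981, 304 and 39 in Prl2+/+. Prl2-/- replicate 1 held no count of F2, of Cpb2 (a carboxypeptidase that slows fibrinolysis) or of Plg (plasminogen), which allows up to 0.0838 CPM for each. Serpinf2 (alpha-2-antiplasmin) ranged from 5 to 1775 counts over the 6 libraries. The summed level of the 8 genes was 0.81, 314 and 30.7 CPM in Prl2-/- and 845, 102 and 17.8 CPM in Prl2+/+.

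Apolipoprotein genes varied as widely. Apoa1, the main protein of high-density lipoprotein, had 18, 634 and 55 counts in Prl2-/- and 1553, 264 and 22 in Prl2+/+, and its log2 fold change was -1.55 ± 1.66 (SE; edgeR adjusted p = 0.899). Apob, the structural protein of very-low-density lipoprotein, had 1, 990 and 60 counts in Prl2-/- and 2498, 458 and 19 in Prl2+/+. In Prl2-/- replicate 1, Apoa1 was thus still detected where Apob was nearly absent. Apom, a carrier of sphingosine-1-phosphate, had 3, 270 and 19 counts in Prl2-/- and 397, 95 and 5 in Prl2+/+. Apoa2, a further high-density lipoprotein protein, had 17, 214 and 25 counts in Prl2-/- and 493, 88 and 10 in Prl2+/+, so that its lowest library was Prl2+/+ replicate 3 rather than Prl2-/- replicate 1. Exons of Apoa2 overlap those of Tomm40l on the opposite strand, and this library kit does not mark strand, so its count is uncertain.

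Protease inhibitors and other secreted proteins summed to 1.12, 88.8 and 6.35 CPM in Prl2-/- and 179, 25.2 and 2.66 CPM in Prl2+/+. Vtn (vitronectin) had 3, 485 and 23 counts in Prl2-/- and 840, 153 and 6 in Prl2+/+. Agt (angiotensinogen) had 0, 430 and 40 counts in Prl2-/- and 730, 147 and 16 in Prl2+/+. Ahsg (fetuin-A, an inhibitor of mineral deposition) had 21, 442 and 28 counts in Prl2-/- and 586, 94 and 9 in Prl2+/+, and it too was lowest in Prl2+/+ replicate 3. The inter-alpha-trypsin inhibitor heavy chain genes Itih2, Itih3 and Itih4 had log2 fold changes of -1.16, -1.44 and -1.89. Itih4 had the smallest unadjusted p of the set, at 0.27 (edgeR adjusted p = 0.899). Serpina1a and Serpina1b, near-identical genes of alpha-1-antitrypsin, can share reads, so the split between their counts is uncertain. They had at most 105 and 478 counts in Prl2-/- and at most 207 and 792 in Prl2+/+.

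Keratin genes, which are not secreted products, followed the plasma protein genes. Krt8 had 33, 5457 and 1233 counts in Prl2-/- and 10445, 2263 and 273 in Prl2+/+. Its partner Krt18 had 71, 4315 and 909 counts in Prl2-/- and 7958, 1819 and 280 in Prl2+/+. Prl2+/+ replicate 1 led for both genes and Prl2-/- replicate 1 came last. Their log2 fold changes were -1.13 and -1.10 (edgeR adjusted p = 0.908 for each). Krt20, a keratin best known from gut and urothelium, had 0, 561 and 89 counts in Prl2-/- and 1202, 204 and 15 in Prl2+/+.

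Both transcription factor genes ranked the libraries as Alb did. Hnf4a, a nuclear receptor required for hepatocyte differentiation, had 49, 520 and 108 counts in Prl2-/- and 950, 192 and 36 in Prl2+/+, or 1.37, 17.6 and 2.92 CPM and 36.3, 5.71 and 1.39 CPM. Its 2 poorest libraries, Prl2-/- replicate 1 and Prl2+/+ replicate 3, stood at almost the same level. Foxa2, a pioneer factor of endoderm, had 0, 84 and 19 counts in Prl2-/- and 131, 40 and 1 in Prl2+/+.

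Dlk1, a Notch-related surface protein used to isolate hepatoblasts and known also from stromal cells, did not follow the other genes. It had 341, 527 and 428 counts in Prl2-/- and 389, 437 and 314 in Prl2+/+. In CPM its highest library exceeded its lowest by 1.87-fold, over libraries in which Alb spanned 204-fold. The mean ± SD (n = 3 each) was 12.98 ± 4.34 CPM for Prl2-/- and 13.3 ± 1.42 CPM for Prl2+/+. The log2 fold change was -0.045 ± 0.235 (SE), and its 95% confidence interval of -0.61 to 0.52 was the narrowest of the 34 (edgeR adjusted p = 0.974). Its sign turned without Prl2+/+ replicate 1, Prl2-/- replicate 1 or Prl2-/- replicate 3, with values up to 0.13.

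The library order of Alb was shared by 28 of the other 33 genes, or 84.8%. Of the 12542 other genes tested, 2.13% showed that order. The exceptions were Apoa2, Serpina1a, Ahsg, Itih3 and Dlk1, of which all but Dlk1 differed from it only among the 3 poorest libraries. For the 18 genes with more than 3 counts in every library, the highest library exceeded the lowest by a median of 179-fold, with a range of 1.87-fold for Dlk1 to 1160-fold for Fga. Over the 12364 genes of the table that met the same minimum, the median was 1.31-fold and 1.91% exceeded 10-fold. The genes were listed with earlier results of these data known, so these shares describe them and are no independent evidence.

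Per length, the order of the genes was similar in the richer libraries. In RPKM (CPM divided by the gene length in kilobases, from the table), Afp and Trf led with 477 each in Prl2-/- replicate 2 and with 831 and 665 in Prl2+/+ replicate 1. Krt18, Krt8, Fgb, Rbp4 and Alb came next in both libraries, at 104, 102, 88.9, 70.6 and 55.0 RPKM in Prl2-/- replicate 2 and 217, 221, 252, 144 and 117 RPKM in Prl2+/+ replicate 1. In Prl2-/- replicate 1 the order began with Trf at 23.4 RPKM, Afp at 3.07 and Dlk1 at 1.98. Dlk1 held rank 28 of 34 in Prl2-/- replicate 2 and rank 32 of 34 in Prl2+/+ replicate 1.

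Ratios between genes within a library showed which transcripts kept step with Alb. Afp had 545, 886 and 1034 counts per 100 Alb counts in Prl2-/- and 723, 866 and 1275 in Prl2+/+, a much narrower spread than the CPM of either gene. Rbp4 had 76.2, 81.6 and 93.2 per 100 Alb counts in Prl2-/- and 77.8, 93.2 and 144 in Prl2+/+. The genotypes overlapped in both ratios, and the highest value of each was in Prl2+/+ replicate 3, where Alb itself had 73 counts. Fgb had 35.7, 124 and 137 per 100 Alb counts in Prl2-/- and 166, 142 and 367 in Prl2+/+, so its ratio was lowest and highest in the poorest library of each genotype.

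Most of the extreme ratios to Alb were in the poorest library of each genotype. In Prl2-/- replicate 1, 20 of 33 genes had their lowest ratio of the 6 libraries and 8 had their highest, those 8 being Apoa1, Apoa2, Ahsg, Itih4, Serpina1a, Hnf4a, Trf and Dlk1. In Prl2+/+ replicate 3, 17 of 33 had their highest. Ahsg had 21 counts beside 42 of Alb in Prl2-/- replicate 1, while its counts per 100 Alb counts were 7.04 to 13.3 in the other Prl2-/- libraries and 8.35 to 12.3 in Prl2+/+. Hnf4a had 117 per 100 Alb counts there, against 15.7 and 27.1 in the other Prl2-/- libraries and 15.2 to 49.3 in Prl2+/+. These ratios rest on few counts, as 21 of the 34 genes had fewer than 10 counts and 6 had none in Prl2-/- replicate 1. Relative to Afp, a basis chosen after the data were seen, 15 genes were lowest and 13 highest in that library.

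**Figure D4:**
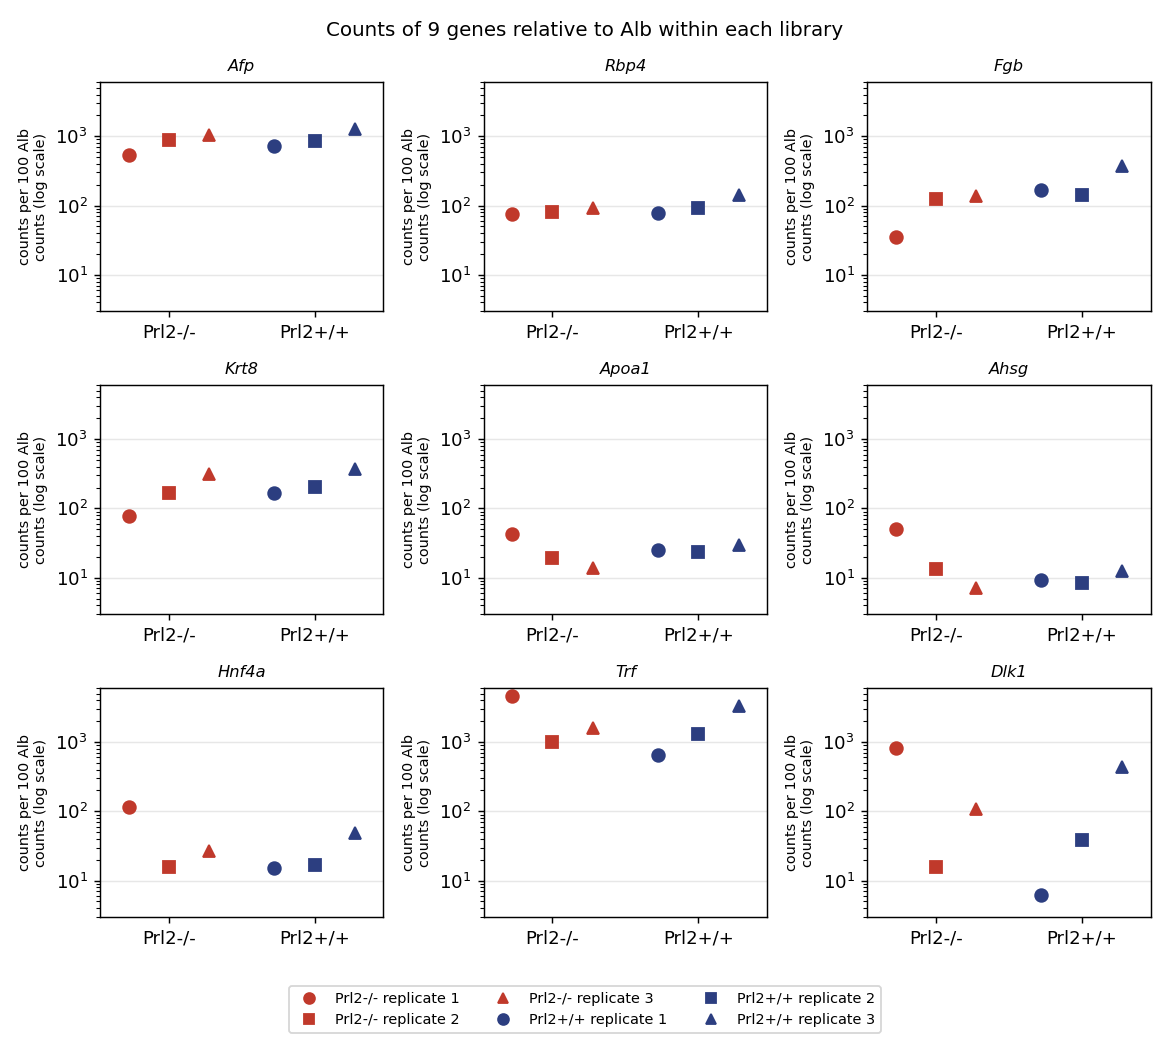
Counts of 9 genes per 100 Alb counts (log axis) in each library, with Prl2-/- left and Prl2+/+ right. Afp and Rbp4 stay within a narrow band (545 to 1275 and 76.2 to 144), while Dlk1 runs from 15.9 to 812 in Prl2-/- and from 6.21 to 430 in Prl2+/+.

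Other liver genes, from lists of complement, clotting, lipid transport, secreted protein, metabolic and transcription factor genes, split into those that varied like Alb and those at similar levels in all libraries. Of 85 listed genes, 41 were tested, and 0 were called higher or lower in Prl2-/- (edgeR adjusted p of 0.899 or above), with 36 estimates below 0, and 9 without Prl2+/+ replicate 1. By list, 0 of 7 complement, 0 of 9 further coagulation, 0 of 6 further lipid transport, 0 of 8 further secreted, 0 of 5 amino acid and urea and 0 of 6 transcription factor genes were called. The library order of Alb was shared by 14 of the 41, or 34.1%, among them Apoe, Cfi, Proc and Foxa3. Apoe, a lipoprotein component that macrophages also make, had 18.8, 171 and 27.6 CPM in Prl2-/- and 331, 68.7 and 25.1 CPM in Prl2+/+. Foxa3, a liver-enriched FOXA factor, had 1, 109 and 18 counts in Prl2-/- and 210, 36 and 5 in Prl2+/+.

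The following 3 genes, chosen after their values were seen, varied much less. C3, the central complement component, stood at 365 to 660 CPM in Prl2-/- and 502 to 611 CPM in Prl2+/+. Hp (haptoglobin, also made by myeloid cells) stood at 246 to 352 CPM in Prl2-/- and 312 to 333 CPM in Prl2+/+, and Hhex, a homeobox factor of liver and blood progenitors, at 68.0 to 92.6 and 73.4 to 89.5 CPM.

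Outside the lists, the genes with the widest range among those in the library order of Alb included Plat (tissue plasminogen activator), Ugt2b34 (a glucuronosyltransferase), Aqp8 (an aquaporin), Itga3 (an integrin of epithelia) and Peg3, a paternally expressed gene. Peg3 had 0.642, 58.3 and 7.75 CPM in Prl2-/- and 134, 24.4 and 3.58 CPM in Prl2+/+. Plat had 0.0279, 15.7 and 3.54 CPM in Prl2-/- and 46.2, 4.02 and 1.62 CPM in Prl2+/+. The exactly opposite order was found in 0.582% of the other genes tested, led by Ly6d and followed by Fam129c, Colq and Tnfrsf13c. Ly6d, known from lymphoid progenitors committing to the B lineage, had 34.4, 3.29 and 5.89 CPM in Prl2-/- and 2.79, 3.42 and 14.6 CPM in Prl2+/+.

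Markers of other cells were compared across the same libraries. Of 8 B lineage markers, all were measured, and their summed level was 382, 69.0 and 179 CPM in Prl2-/- and 103, 121 and 305 CPM in Prl2+/+, highest in the library poorest in hepatoblast transcripts. Of 8 erythroid markers, 6 were measured, with summed levels of 446, 1205 and 538 CPM in Prl2-/- and 639, 890 and 458 CPM in Prl2+/+. The erythroid sum was highest in Prl2-/- replicate 2, not in Prl2+/+ replicate 1, the library richest in hepatoblast transcripts. Of 7 cholangiocyte markers, 6 were measured, with summed levels of 115 to 179 CPM in Prl2-/- and 116 to 246 CPM in Prl2+/+. Within that list Krt19 had 8, 714 and 156 counts in Prl2-/- and 1258, 326 and 30 in Prl2+/+, in the order of Alb. The part of these cell types in the hepatoblast levels was not tested.

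The summed levels of macrophage, endothelial and stromal lists, each carried by a few abundant genes, varied less than several of their genes. Of 9 macrophage markers, 8 were measured, summing to 378 to 419 CPM in Prl2-/- and 360 to 441 CPM in Prl2+/+. Within that list C1qb, a complement subunit gene of macrophages, had 36.9, 8.13 and 10.4 CPM in Prl2-/- and 23.9, 10.8 and 15.5 CPM in Prl2+/+. C1qa and C1qc were likewise highest in Prl2-/- replicate 1, but the other macrophage markers were not. Vcam1 and Cd5l were highest in Prl2+/+ replicate 1, at 19.4 and 2.91 CPM, and Vcam1 was lowest in Prl2-/- replicate 1, at 8.30 CPM. Marco was highest in Prl2-/- replicate 2, Csf1r in Prl2-/- replicate 3 and Adgre1 in Prl2+/+ replicate 2. Of 9 endothelial markers, 5 were measured, at 86.2 to 96.7 CPM in Prl2-/- and 95.1 to 99.7 CPM in Prl2+/+, with Kdr at 7.08 to 19.3 and 15.3 to 21.3 CPM. Of 12 stellate and stromal markers, 6 were measured, at 60.3 to 65.2 CPM in Prl2-/- and 63.0 to 80.5 CPM in Prl2+/+, with Acta2 highest in Prl2+/+ replicate 2 at 11.2 CPM. Of 6 mesothelial markers, 2 were measured, at 14.6 to 17.0 and 13.6 to 26.7 CPM. Of 7 yolk sac and visceral endoderm markers, 3 were measured, of which Ttr and Afp are also hepatoblast genes, and Amn, the remaining one, had 1, 96 and 7 counts in Prl2-/- and 24, 27 and 7 in Prl2+/+. The 8 progenitor markers, dominated by Mpo, summed to 13066 to 14955 CPM in Prl2-/- and 11130 to 14106 CPM in Prl2+/+.

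**Figure D5:**
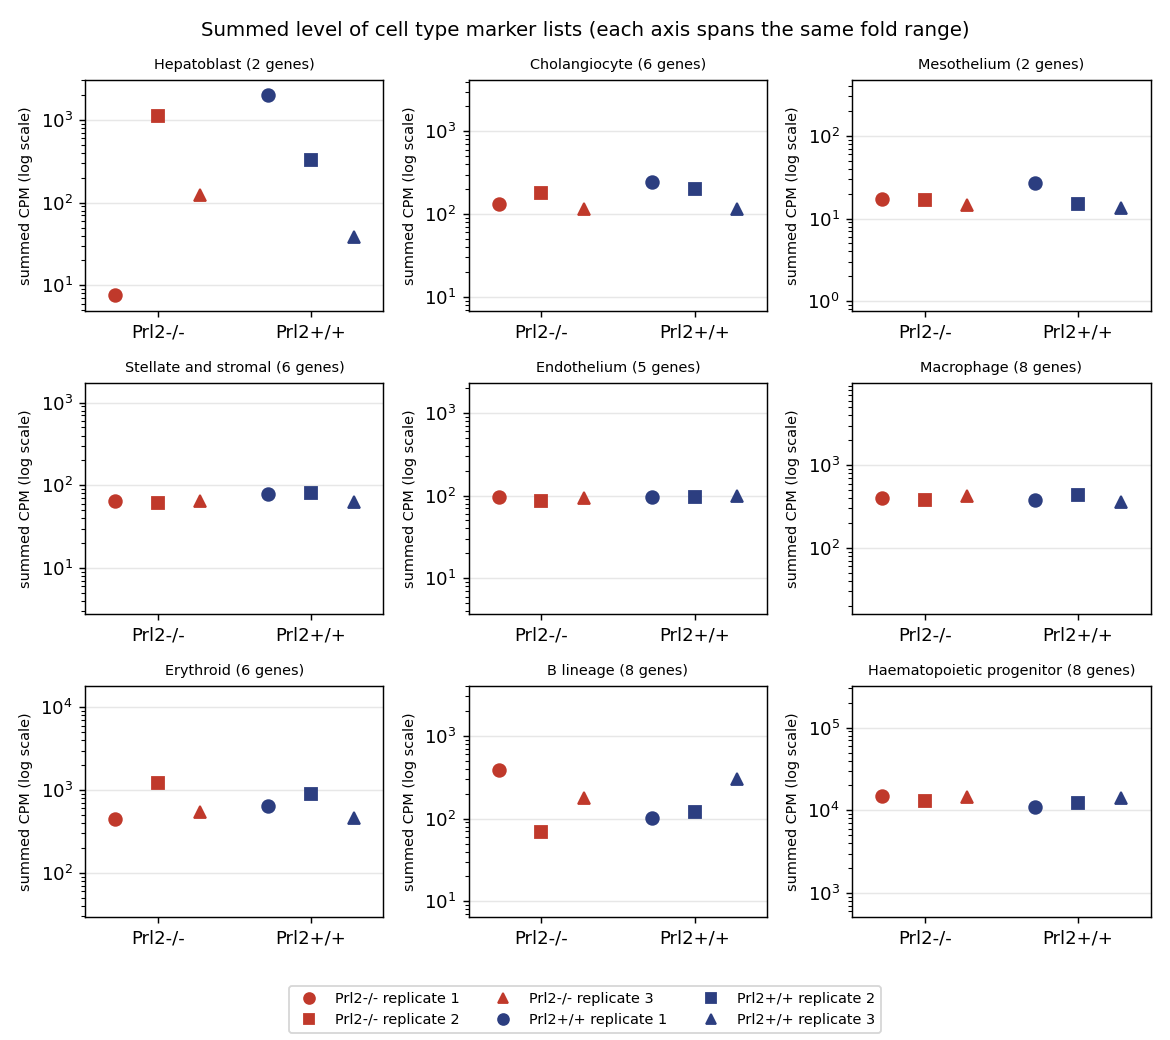
Summed CPM of cell type marker lists in each library, on log axes that each span the same fold range, with Prl2-/- left and Prl2+/+ right. The hepatoblast pair (Alb and Afp) covers 7.57 to 1108 CPM in Prl2-/- and 38.7 to 1972 CPM in Prl2+/+, the B lineage list is highest in Prl2-/- replicate 1, where that pair is lowest, and the endothelial list stays between 86.2 and 99.7 CPM.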

How the data were processed

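Values deposited by the authors were unnormalised read counts per gene, with gene lengths. Reads were aligned with STAR and counted with featureCounts, per the submitters' processing notes, with versions, multi-mapping rule and build not given in the sources used here. Libraries came from a template-switching kit and tagmentation, per the labels' protocols, which do not mark strand. Every gene had a CPM of at least 0.2 in at least 3 libraries. Of 12135 symbols shared with GENCODE M21 (GRCm38), 12124 overlapped the annotated position.

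Counts were tested with edgeR 4.0.16 in R 4.3.3 (filterByExpr, TMM, quasi-likelihood F test, Prl2-/- against Prl2+/+, all 6 libraries, no covariate, Benjamini-Hochberg over 12576 genes, threshold 0.05), which was also tested on simulated data. SE is the fold change over the square root of F. CPM and RPKM use library totals. Alternatives covered scaling, filters, DESeq2 1.42.0, the likelihood ratio test, limma-voom 3.58.1, the replicate block and each library left out. A count of 0 was given a limit of 3 counts. Named genes are all listed genes, up to 4 abundant genes per further list, and, outside the lists, those with the widest range in the order of Alb or its opposite (mean CPM 2 or more); other examples were chosen after their values were seen. Genes, lists and tests were chosen with earlier results of these data known. Exons of Fgg, Plg, Ttr, Trf, Ahsg, Krt8 and Apoa2 overlap another annotated gene, so their counts are uncertain to that extent. Some genes of the further lists are not reported here by name.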

Additional observations from a re-analysis of the deposited data

How the results depend on the processing

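Of the 34 genes, 0 were called under any scaling, filter, tool or omission tried, and 0 of the 41 other liver genes were (29 tested under the strict filter). Against 5 genes called over the whole table, DESeq2 gave 36, the likelihood ratio test 21 and the replicate block 1, and leaving out 1 library gave 3 to 4. The estimates of all 34 lay below 0 under the other scalings, filters and tools (33 of 33 under the strict filter), with a median log2 fold change of -1.91 in limma-voom against -1.17 in edgeR. With the replicate block 30 of 34 did, with a median log2 fold change of -0.33, and the estimate was 0.0026 for Alb, 0.088 for Afp, 0.25 for Serpina1a and 0.012 for Foxa2. Across genes, deviations of same-numbered libraries from their group means correlated at -0.638, 0.209 and 0.174. Libraries with different numbers gave values from -0.813 to 0.745. With 3 libraries per group, these values cannot decide whether the numbers pair the samples. Leaving out 1 library left 0 to 34 estimates below 0 and moved the median log2 fold change between -3.96 and 0.93. The order of Alb held for 29 of 34 genes on TMM-scaled CPM and for 29 to 33 over the remaining 5 libraries. The share of counts on the 34 genes ranged over 0.00136% to 0.184% in Prl2-/- and 0.00724% to 0.373% in Prl2+/+ without the keratins, Dlk1 and Trf. Counting limits values in Prl2-/- replicate 1, where 6 of the genes had 0 counts although its total was not low. The log2 fold change of each gene with 1 library left out spanned the following values, whose upper end was reached without Prl2+/+ replicate 1, or for Dlk1 without Prl2-/- replicate 1. Among apolipoproteins it ran from -4.49 to 0.81 for Apoa1, -3.64 to 0.85 for Apoa2, -5.45 to 0.67 for Apob and -4.31 to 1.06 for Apom. Among coagulation genes it ran from -4.45 to 1.07 for Fga, -4.31 to 0.81 for Fgb, -4.54 to 0.74 for Fgg, -3.74 to 0.89 for F2, -4.56 to 1.16 for Kng1, -3.83 to 1.15 for Cpb2, -4.34 to 0.90 for Serpinf2 and -4.70 to 0.65 for Plg. Among carriers it ran from -3.93 to 1.15 for Alb, -3.54 to 1.16 for Afp, -4.41 to 0.89 for Ttr, -2.62 to 0.74 for Trf, -3.74 to 0.92 for Rbp4, -4.17 to 1.31 for Gc, -4.16 to 1.21 for Hpx and -4.34 to 0.88 for Ambp. Among protease inhibitors and other secreted proteins it ran from -3.82 to 1.31 for Serpina1a, -3.99 to 1.03 for Serpina1b, -3.65 to 1.74 for Ahsg, -3.78 to 0.94 for Itih2, -6.29 to 1.20 for Itih3, -3.92 to 0.87 for Itih4, -5.09 to 1.21 for Vtn and -4.32 to 1.02 for Agt. Among keratins it ran from -3.21 to 0.88 for Krt8, -3.20 to 0.80 for Krt18 and -3.85 to 1.06 for Krt20. For the remaining genes it ran from -2.74 to 1.01 for Hnf4a, -2.98 to 0.80 for Foxa2 and -0.34 to 0.13 for Dlk1.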
